A study of Mus musculus with 20 samples.

Results

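T follicular helper (TFH) cells and regulatory T (Treg) cells sorted from Peyer's patches (PP) of mice were compared on 6 of the 20 arrays of the series. The members were chosen by their labels alone. TFH cells that carried the GL7 carbohydrate epitope (TFH GL7+) and TFH cells that lacked it (TFH GL7-) had 2 arrays each, and Treg cells had 2 arrays. The remaining 14 arrays held T follicular regulatory (TFR) cells of PP and naive T, TFH, Treg and TFR cells of peripheral lymph nodes (pLN). All cells came from the reporter strain B6.Cg-Foxp3<tm1Mal>, in which green fluorescent protein (GFP) marks cells that transcribe Foxp3, and every group carries this allele. Each sample pooled 8 to 15 mice aged 8 to 14 weeks, though the study's statistics section gives a lower range of mice and its mouse section a lower range of ages. Females and males were used across the study, and the sex of each pool was not labelled. PP mice carried no immunisation label, whereas pLN mice had been immunised with keyhole limpet haemocyanin in alum and their day 12 samples are used below.

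Cells were sorted as CD4+ and B220-. TFH cells were GFP- with high PD1, and Treg cells were GFP+, low for PD1 and GL7-. The levels of Foxp3 and of Pdcd1, which encodes PD1, therefore describe the sort. Slide 4 held replicate 1 of each PP group (50 ng RNA) and slide 5 held replicate 2 (40 ng), so slide, experiment and RNA input cannot be told apart. The GL7+ and GL7- fractions of a slide may stem from the same mice, so the 4 TFH arrays stand for 2 independent experiments although the fit counts each array. With both fractions of a slide averaged to 1 sample, 2997 probes were called, against 3123 below. The number of experiments limits the precision of every value below. Fewer cells of a type and less RNA per cell cannot be told apart in such bulk samples.

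TFH cells enter B-cell follicles through the chemokine receptor CXCR5 and help germinal centre B cells with CD40 ligand, IL21 and IL4, under the repressor BCL6. Treg cells depend on the transcription factor FOXP3 and on IL2, whose signal passes from the receptor chain CD25 (Il2ra) through JAK kinases to STAT5. IL2 signalling counters TFH differentiation. Peyer's patches hold germinal centres permanently, under the influence of gut microbes and of vitamin A metabolites.

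STAT proteins bind short palindromes of the form TTCNNNGAA. Promoter stretches are printed of Cish, a STAT5-induced inhibitor of cytokine signalling that was lower in TFH cells, and of Bcl6, which was higher. These genes lie on either side of the comparison, and only windows with more than 1 match were printed. The stretches were taken from RefSeq windows on build GRCm38.p6, and capitals mark each match. The pattern, though not the letters of a match, is the same on both strands. The Cish stretch covers chr9:107296409-107296678 on the + strand, the 250 bases before the annotated start and the 20 bases from it. Its matches begin at base 1 and base 12 from the start and do not overlap. The Bcl6 stretch covers chr16:23981284-23981533 on the - strand, the 250 bases before the downstream of its 2 annotated starts. Its matches begin 168, 122 and 88 bases before that start. This start was printed because its window held more than 1 match. The window of the other Bcl6 start held 1 match, which begins 118 bases before it.
Cish: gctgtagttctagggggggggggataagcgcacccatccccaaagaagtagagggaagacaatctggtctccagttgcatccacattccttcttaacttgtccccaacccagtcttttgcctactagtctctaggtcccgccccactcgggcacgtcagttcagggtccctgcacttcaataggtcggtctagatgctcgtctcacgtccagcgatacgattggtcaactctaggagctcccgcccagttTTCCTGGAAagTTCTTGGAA
Bcl6: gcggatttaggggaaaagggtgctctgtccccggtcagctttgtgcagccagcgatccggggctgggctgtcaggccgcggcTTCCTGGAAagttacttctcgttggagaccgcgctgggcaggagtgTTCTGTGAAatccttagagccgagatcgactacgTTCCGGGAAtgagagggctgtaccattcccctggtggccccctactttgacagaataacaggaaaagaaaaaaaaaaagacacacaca

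Of 32851 windows that each span 250 bases before to 50 bases after an annotated start, 8.30% held at least 1 match and 0.457% held 2 or more. The printed windows were picked for their matches, so these shares do not show how unusual they are. Among 14 genes of IL2 reception and response, 12 had a window, and 3 of these (Cish, Socs3 and Il7r) held a match. The Il2ra window held none. Socs2 and Il2rb had no window in the table. A match is a run of letters, and binding was not measured.

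Between 52.0% and 56.9% of the 39429 probes were detected on the 6 arrays, with a median local background of 25 to 39 intensity units, and no probe was saturated. Values are normalised intensities with a floor of 20, and the lowest value of a detected probe was 21.4 to 41.1, so lower levels are not resolved. TFH arrays correlated with each other at r = 0.971 to 0.995 across probes and with Treg arrays at 0.927 to 0.961, while the Treg arrays correlated at 0.964. All 9 defining T-cell genes, among them Cd3d and Lck, were detected on each of the 6 arrays, and only Cd4 was called between TFH and Treg, higher in TFH cells by 1.16 on the log2 scale. Summed intensities of 13 B-cell markers ranged from 6683 to 45842 on TFH arrays and from 15107 to 119324 on Treg arrays. The sum of slide 4 exceeded that of slide 5 by 7.90-fold for Treg, 2.92-fold for TFH GL7+ and 3.87-fold for TFH GL7-. Epithelial sums were 7202 to 24255 on TFH arrays and 15068 and 48731 on Treg arrays. Erythroid sums were 243 to 7206 and 1193 and 26443. Of 13 B-cell, 9 epithelial and 1 erythroid markers tested, 1, 2 and 0 were called lower in TFH cells and none was called higher, by the test given below, which called 15.2% of all genes. Of 8 genes of preparation stress, Jun (-2.27, adjusted p = 5.9e-06), Ier2 (-1.16) and Atf3 (-1.48) were lower, with summed intensities of 11828 to 16356 on TFH and 21521 and 22895 on Treg arrays. Of 5 markers of CD8 T and NK cells, Cd8a (-1.71) and Cd8b1 (-1.26) were lower and Klrb1c was higher (3.99, adjusted p = 0.00166). Of 11 myeloid markers Cd68 was higher (2.68) and Fcgr1 lower (-1.35), and of 4 stromal markers Col3a1 was lower (-1.40), while none of 3 plasma cell markers was called. Their part in the differences below was not tested.

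**Figure D1:**
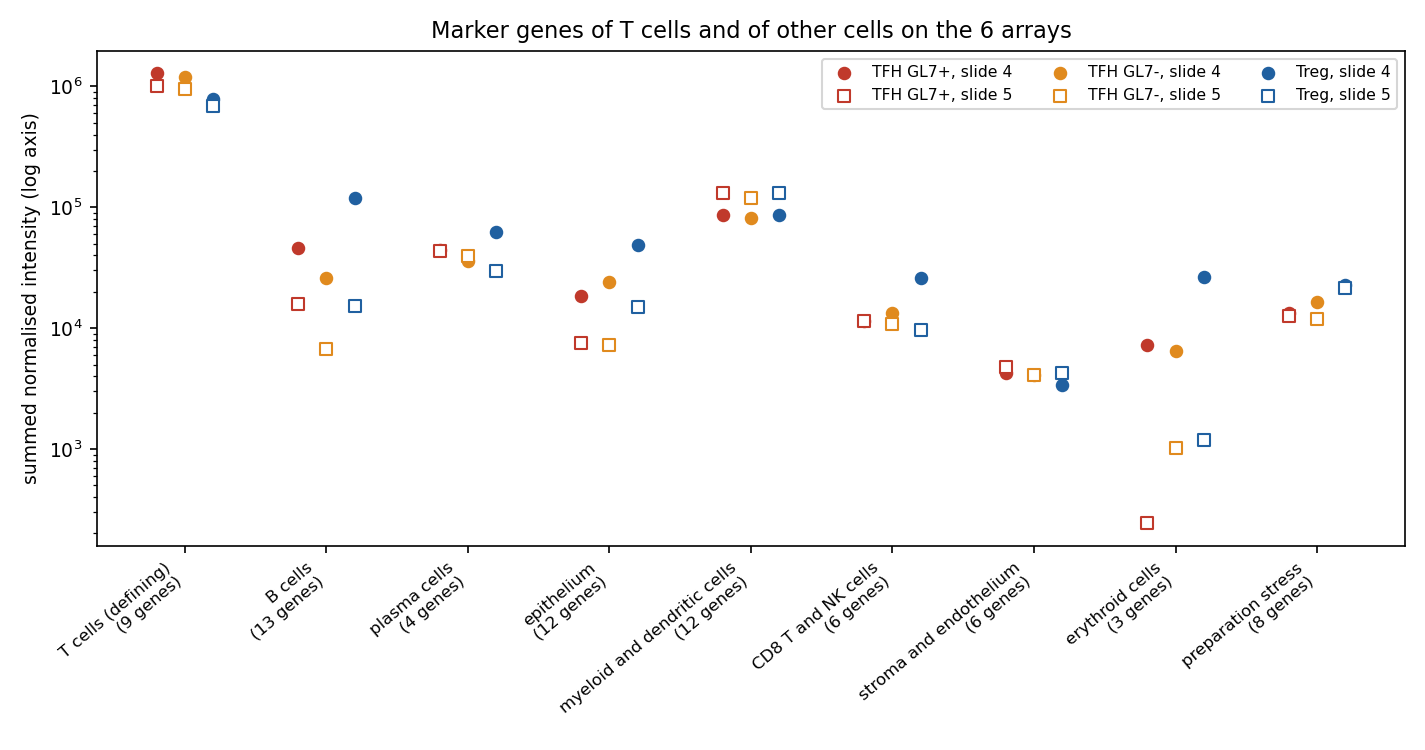
Summed normalised intensity (log axis) of 9 marker lists on the 6 arrays, 1 point per array, with circles for slide 4 and squares for slide 5. B-cell, epithelial and erythroid sums were higher on slide 4 than on slide 5 in every group, and the Treg array of slide 4 had the highest B-cell sum (119324).

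TFH and Treg cells of PP differed at 3123 of 22264 probes tested (14.0%), of which 1590 were higher (7.14%) and 1533 lower (6.89%) in TFH cells. A probe was called when limma, with slide as block, gave a Benjamini-Hochberg adjusted p under 0.05 and a log2 difference of at least 1. At 1 probe per gene, 2208 of 14486 genes were called (15.2%), with 1174 higher (8.10%) and 1034 lower (7.14%). The median difference of all genes was 0.03 on the log2 scale. Of the called probes, 2509 differed by at least 1 in the same direction within slide 4 and within slide 5. TFH GL7+ cells differed from Treg cells at 3279 probes (14.7%) and TFH GL7- cells at 2755 (12.4%), or 2262 genes (15.6%) and 1980 genes (13.7%), both against the same 2 Treg arrays. For 353 probes called higher and 140 called lower, the dimmer cell type was below background on all its arrays, and the fold is then a lower bound. Such probes passed the detection filter through other groups. Where values are at the floor, here and below, SE and adjusted p do not measure the replicate spread of that cell type.

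**Figure D2:**
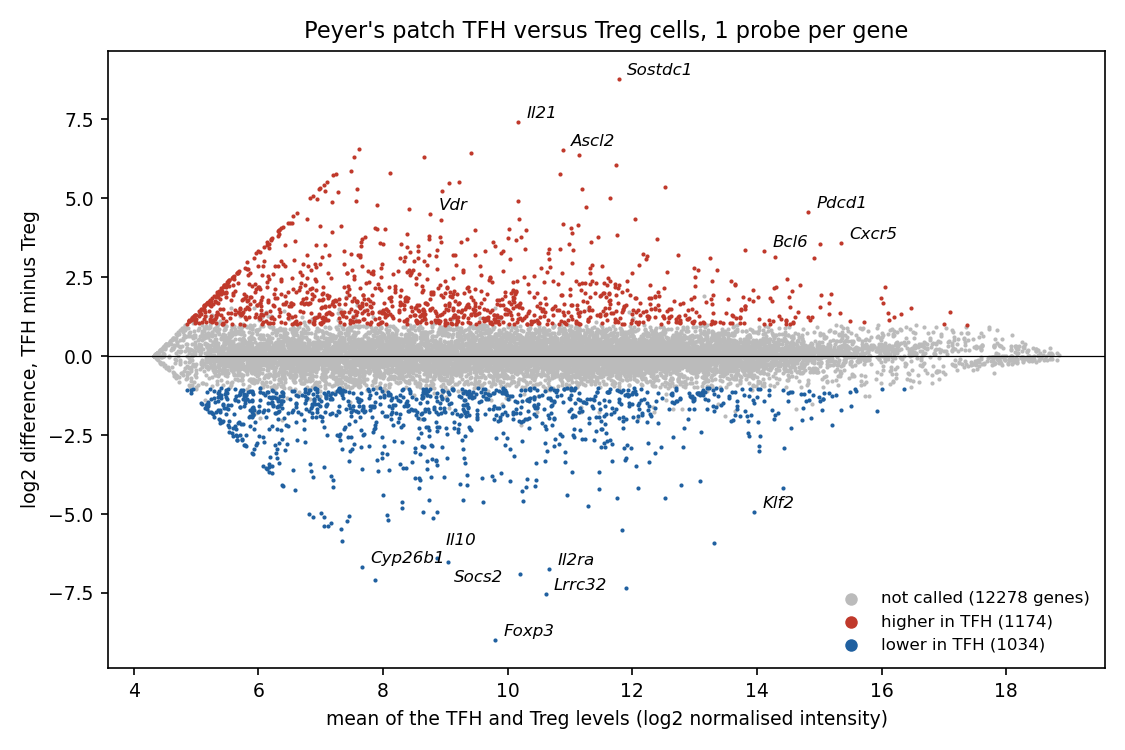
Each of 14486 genes is plotted by the mean of its TFH and Treg levels (log2 normalised intensity) and by the log2 difference of TFH minus Treg cells. The 1174 genes called higher and 1034 called lower lie on both sides of 0, from Foxp3 at -8.98 to Sostdc1 at 8.79, and the straight edges at the left are genes whose level in 1 of the cell types is at the floor.

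The widest difference was that of Foxp3, the gene on which the reporter sort rests (probe at chrX:7172301-7172360, mm9). Its level was 26173 and 14718 in Treg cells on slides 4 and 5, against 40.7 and 38.9 in TFH GL7+ and 35.3 and 40.3 in TFH GL7- cells, and 2 of the 4 TFH arrays detected it. The difference was -8.98 (SE 0.20, adjusted p = 2.24e-07). PP TFR cells, which are GFP+ like Treg cells, had 19243 and 13409. Pdcd1, the other sort gene, read 103240 to 174440 on the TFH arrays and 6517 and 5300 in Treg cells, a difference of 4.57 (SE 0.20, adjusted p = 2.03e-06).

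Of 12 transcription factors of the TFH programme, 9 were called higher in TFH cells, none lower and 3 neither, with a median log2 difference of 1.69. Of all genes, 8.10% were called higher and 7.14% lower, the shares to set beside this list and each list below. Groups did not overlap for 10 of the 12, beside 38.1% of all genes tested. Bcl6, the repressor that directs the TFH fate, read 72183 and 51429 in TFH GL7+, 57075 and 41178 in TFH GL7- and 7034 and 4213 in Treg cells (log2 difference 3.32, SE 0.21, adjusted p = 1.07e-05). Ascl2, a basic helix-loop-helix factor that induces Cxcr5, rose further. Its levels were 27675, 16893, 18510 and 11230 in TFH cells and 216 and 169 in Treg cells, a 92.4-fold difference (log2 6.53, SE 0.19, adjusted p = 3.88e-07). Cebpa, a basic leucine zipper factor known from myeloid cells, read 15962 to 38077 in TFH cells and 635 and 231 in Treg cells (log2 6.06, SE 0.46, adjusted p = 2.98e-05). TFH and Treg arrays did not overlap for these 3 genes. PP TFR cells, sorted as GFP+ with high PD1, were not called against TFH cells in Bcl6 (log2 -0.13, adjusted p = 0.721), Ascl2 (-0.42, 0.184) or Cebpa (0.23, 0.782). They were above Treg cells in each (3.19, 6.11 and 6.29), so these rises were not particular to TFH cells. Also called higher in TFH than in Treg cells were Tox2, Tox, Tcf7, Batf, Maf and Pou2af1. Pou2af1 is a B-cell coactivator as well, and its Treg level was 17879 on slide 4, where B-cell markers were high, and 1166 on slide 5. A link was not tested. Irf4 (log2 0.24), Nfatc1 (0.52) and Id3 (0.19) were not called.

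Surface molecules of TFH cells gave 12 higher, none lower and 7 not called out of 19, with a median of 1.67. The 12 include Pdcd1, whose direction was fixed by the sort. Cxcr5, the receptor for the follicular chemokine CXCL13, read 169610 and 158620 in TFH GL7+, 128740 and 116670 in TFH GL7- and 15156 and 9071 in Treg cells (log2 3.60, SE 0.26, adjusted p = 2.24e-05). PP TFR cells had 88179 and 72183 and were not called against TFH cells in Cxcr5 (-0.83, adjusted p = 0.0616). Il1r1, the signalling receptor for IL1, had the widest difference of the list, 5.53 (SE 0.44, adjusted p = 3.94e-05), at 2959 to 4886 in TFH cells and 104 and 70.4 in Treg cells. Its decoy counterpart Il1r2 was higher as well (3.25, adjusted p = 0.00211). Icos, a costimulator that both cell types use, differed least among the named members. It read 80632 to 172610 in TFH cells and 59178 and 41053 in Treg cells (log2 1.35, SE 0.24, adjusted p = 0.00224), and the call was lost without slide 4 or without slide 5 (adjusted p = 0.0968 and 0.0776). Cd40lg, the TNF-family ligand through which T cells license B cells, read 501 to 953 in TFH cells and 57.0 and 59.7 in Treg cells (log2 3.50, SE 0.35, adjusted p = 0.000124). Tigit, Sh2d1a, Btla, S1pr2, Rgs16 and Tnfsf8 were the other members called higher.

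Cytokine genes were higher in TFH cells for 9 of 12 measured (Il5, Il9 and Csf2 had no tested probe), lower for Il10 and not called for Il3 and Tgfb1. Il21, which drives germinal centre B cells, showed the second widest rise of all genes (probe at chr3:37121681-37121740, mm9). It read 17168 and 15163 in TFH GL7+, 14409 and 13435 in TFH GL7- and 92.8 and 81.6 in Treg cells, a 172-fold difference (log2 7.43, SE 0.32, adjusted p = 1.74e-06). Il4, the cytokine of class switching to IgG1 and IgE, read 41018, 40009, 37291 and 30660 against 1086 and 762 (log2 5.35, SE 0.52, adjusted p = 0.000106). Both cytokines were also present in PP TFR cells, at 4759 and 3489 for Il21 and 20574 and 27193 for Il4. Between PP TFR and TFH cells, 1026 of 14486 genes were called (7.08%). PP TFR cells were lower than TFH cells in Il21 (log2 -1.88, adjusted p = 0.00497) and the difference in Il4 was not called (-0.65, adjusted p = 0.448).

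Il17a, Il17f and Il22, which encode cytokines of type 17 helper cells, had their higher TFH levels in the GL7- fraction. Il17a read 24.7 and 20.8 in TFH GL7+ but 443 and 263 in TFH GL7- cells, against 40.3 and 20 in Treg cells, and 2 of the 4 TFH arrays and no Treg array detected it. TFH GL7- cells were above Treg cells by 3.59 (adjusted p = 0.000122), while for TFH GL7+ cells the value was -0.33 (adjusted p = 0.47). Il17f gave 2.50 (adjusted p = 0.000458) and 0.22 (adjusted p = 0.592) and Il22 gave 2.93 (adjusted p = 0.00129) and 0.68 (adjusted p = 0.243) for the same comparisons. The difference between the fractions was not tested. Ifng, at 588 to 1827 in TFH cells and 77.8 and 136 in Treg cells, and Il13 were higher in each fraction.

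Il10, an anti-inflammatory cytokine, stood against the other cytokines. Its level was 4527 and 3338 in Treg cells, 29.8 and 22.9 in TFH GL7+ and 68.1 and 101 in TFH GL7- cells, and 2 of 4 TFH arrays detected it. The difference was -6.38 (SE 0.46, adjusted p = 2.39e-05). PP TFR cells lay between, at 463 and 1345.

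**Figure D3:**
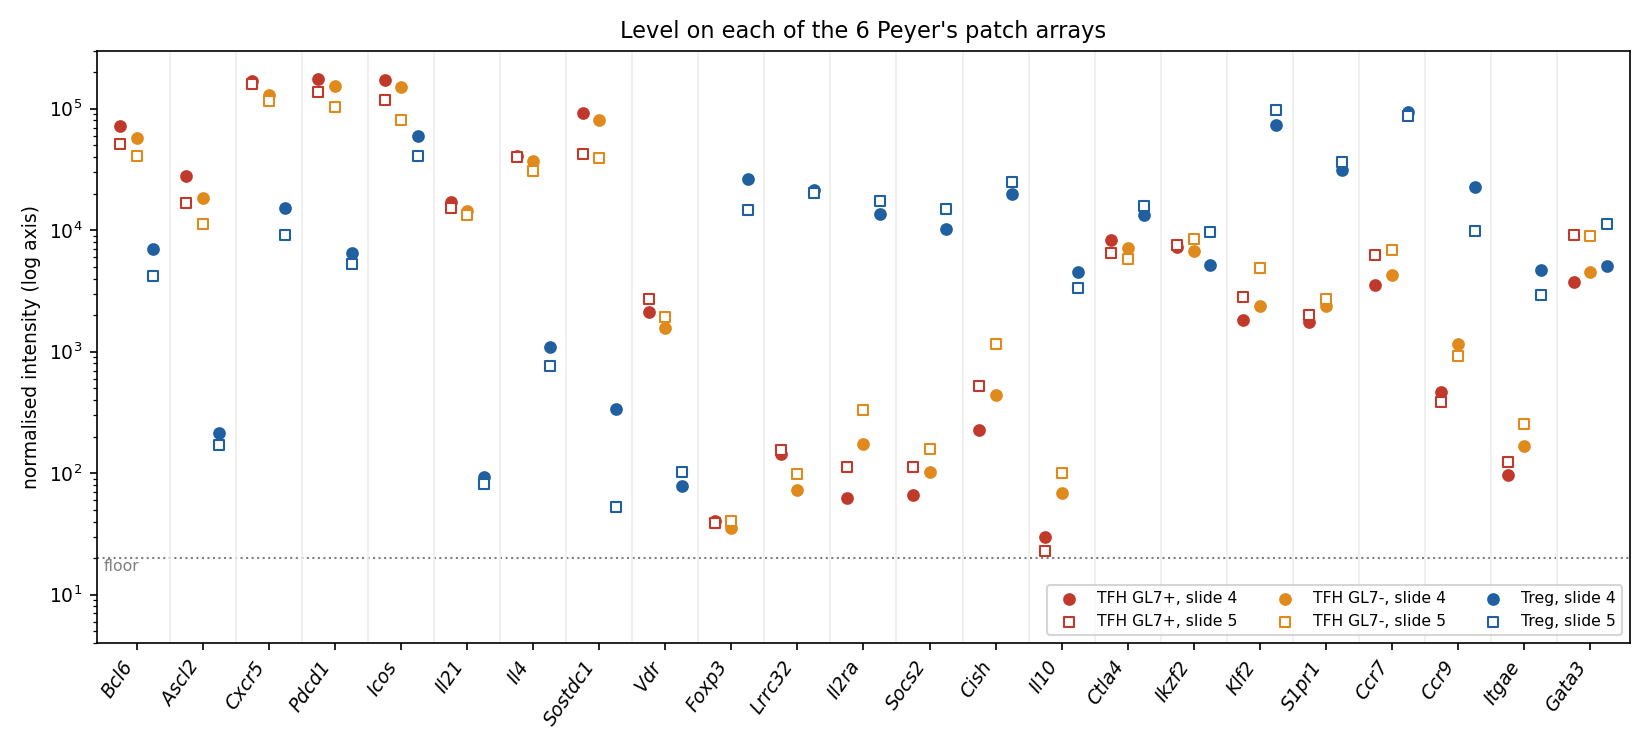
Normalised intensity (log axis) of 23 genes on each of the 6 arrays, with circles for slide 4, squares for slide 5 and a dotted line at the floor of 20. TFH and Treg points lie apart for 21 of the genes and overlap for Ikzf2 and Gata3, while groups did not overlap for 38.1% of all genes tested. The 23 were picked from the named genes, so their count is no independent result.

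Of 29 Treg identity genes, 22 were lower in TFH cells, 1 was higher and 6 were not called, with a median of -2.85. The 22 include Foxp3, whose direction was fixed by the sort. Lrrc32, which encodes the surface receptor for latent TGF-beta (GARP), fell by 7.54 on the log2 scale (SE 0.28, adjusted p = 9.71e-07). It read 21585 and 20141 in Treg cells against 72.8 to 154 on the TFH arrays, and PP TFR cells had 8579 and 14399. Itgae, an integrin chain that binds epithelial E-cadherin, read 4660 and 2911 in Treg cells and 96.7 to 255 in TFH cells (log2 -4.61, SE 0.39, adjusted p = 5.17e-05), while PP TFR cells had 3107 and 5848 and were not called against Treg cells, from which 2122 genes differed (14.6%), in Itgae (log2 0.21, adjusted p = 0.746). Prdm1, whose product BLIMP1 opposes BCL6, read 1629 and 1293 in Treg cells and 125 to 181 in TFH cells (log2 -3.33, SE 0.24, adjusted p = 2.37e-05). Tnfrsf1b, the second TNF receptor, was lower by a log2 difference of -2.56 (SE 0.28, adjusted p = 0.000193).

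Not all Treg genes were lower. Ikzf2, which encodes Helios, read 6697 to 8544 in TFH cells and 5202 and 9724 in Treg cells, a difference of 0.07 (SE 0.31, adjusted p = 0.877) with overlapping groups. Within slide 4 it was 0.42 and within slide 5 it was -0.28. Ctla4, the checkpoint receptor, was lower by only -1.08 (SE 0.35, adjusted p = 0.0384), at 5818 to 8305 in TFH cells and 13224 and 15945 in Treg cells, and it lost the call when any array of the 6 was left out. Izumo1r, Nt5e, Ebi3, Dusp4 and Areg were not called. Itgb8, an integrin chain that activates TGF-beta, was the member called higher. It read 33.9 to 49.5 in TFH cells and was below background in Treg cells, which bounds the fold at 1.29 or more, and with a floor of 50 it lost the call.

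Genes of IL2 reception and response were lower for 8 of 14 and higher for none, with a median of -1.25. Il2ra, the chain that gives the IL2 receptor its high affinity, read 13579 and 17257 in Treg cells, 62.7 and 112 in TFH GL7+ and 174 and 333 in TFH GL7- cells (log2 -6.75, SE 0.24, adjusted p = 8.29e-07). Socs2, a feedback inhibitor induced by STAT5, read 10291 and 14983 in Treg cells and 66.2 to 159 in TFH cells (log2 -6.89, SE 0.22, adjusted p = 5.09e-07). Cish, whose start holds the pair of TTCNNNGAA matches printed above, read 20004 and 25149 in Treg cells and 227 to 1157 in TFH cells (log2 -5.51, SE 0.36, adjusted p = 1.37e-05). PP TFR cells were intermediate for these genes, with 1192 and 3268 for Il2ra, 445 and 1309 for Socs2 and 2455 and 9752 for Cish, and were above TFH cells in each (adjusted p = 4.2e-05, 0.000108 and 0.000547). Socs3, Bcl2, Pim1, Il7r and Socs1 were called lower at -1.79 to -1.03. The receptor chains and transducers Il2rb (-0.78), Il2rg (-0.08), Jak1 (0.13), Jak3 (0.69), Stat5a (-0.41) and Stat5b (0.04) were not called.

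Genes that keep resting T cells in circulation were lower for 11 of 14 and higher for none, with a median of -2.22. Klf2, the factor that drives transcription of S1pr1, read 73713 and 96749 in Treg cells and 1816 to 4887 in TFH cells (log2 -4.93, SE 0.38, adjusted p = 3.19e-05). S1pr1, the egress receptor for sphingosine 1-phosphate, read 31030 and 36634 against 1754 to 2727 (log2 -3.94, SE 0.26, adjusted p = 1.54e-05). Ccr7, the receptor for T-zone chemokines, read 94490 and 87307 against 3508 to 6936 (log2 -4.17, SE 0.28, adjusted p = 1.71e-05). PP TFR cells were also below Treg cells in Klf2, S1pr1 and Ccr7 (log2 -4.08, -3.45 and -3.38). They were not called against TFH cells in these genes (0.86, 0.49 and 0.79). The TFH and Treg arrays did not overlap for any of the 14 genes, beside 38.1% of all genes tested. Foxo1 (-0.63), Foxp1 (-0.94) and Lef1 (-0.70) stayed under a 2-fold difference and were not called.

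Homing receptors and integrins were mixed, with 3 higher, 9 lower and 8 not called of 20 measured (median -0.33). Ccr9, the receptor for the small intestinal chemokine CCL25, read 22494 and 9905 in Treg cells, 464 and 384 in TFH GL7+ and 1157 and 921 in TFH GL7- cells (log2 -4.50, SE 0.27, adjusted p = 8.49e-06). Ccr2, a receptor of inflammatory chemokines, was below background on all TFH arrays and read 556 and 1027 in Treg cells, at least 26.9-fold higher there (adjusted p = 0.000158). Itga4 and Itgb7, which pair as the gut homing integrin, were lower by log2 differences of -1.39 and -1.70. Besides Cxcr5, S1pr2 and Itgal were higher.

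Vitamin A and D genes were higher for Vdr and Asb2, lower for 6 and not called for 4 of 12 measured (median -0.81). The other tested probe of Asb2 had the opposite sign, at -0.39 (adjusted p = 0.872), and without PP Treg replicate 2, slide 4 or slide 5 the number higher was 1. Vdr, the vitamin D receptor, read 2121 and 2702 in TFH GL7+, 1552 and 1924 in TFH GL7- and 78.8 and 102 in Treg cells (log2 4.51, SE 0.22, adjusted p = 3.06e-06). PP TFR cells had 1654 and 1983 and were not called against TFH cells in Vdr (-0.17, adjusted p = 0.65). Cyp26b1, an enzyme that degrades retinoic acid, was below background on all 4 TFH arrays and read 2133 and 1964 in Treg cells, at least 72.8-fold higher (adjusted p = 1.4e-07). All its TFH values were at the floor, so this p-value does not reflect their spread. Stra6, a transporter for retinol, was at least 37.7-fold higher in Treg cells. The retinoic acid receptors Rara (-3.38) and Rarg (-2.06) were lower in TFH cells too.

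Among T helper lineage regulators 5 of 16 were lower and none higher (median -0.16), beside 7.14% and 8.10% of all genes. Gata3, the factor of type 2 helper cells, was not called (-0.32, SE 0.17, adjusted p = 0.178), with 3740 to 9050 in TFH cells and 5120 and 11259 in Treg cells. Without slide 4 and without slide 5, 2 and 3 members were called lower. Inhibitory receptors were split, with Pdcd1 (a sort gene), Tigit, Cd160, Cd200r1 and Btla higher and Havcr2 and Ctla4 lower of 11 (median 0.92). Havcr2 (TIM3) was below background in TFH cells and at 78.3 and 138 in Treg cells, at least 3.49-fold higher there.

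TNF-family genes fell on both sides, with 6 higher, 7 lower and 7 not called of 20 (median 0.01). The members higher were 5 ligands (Cd40lg, Tnfsf8, Tnfsf14, Tnfsf11 and Tnf) and the receptor Tnfrsf8. Those lower were 5 receptors (Tnfrsf1b, Tnfrsf25, Tnfrsf18, Tnfrsf9 and Tnfrsf4) and the ligands Tnfsf10 and Fasl. Without either slide, 3 were called higher and 5 lower. In the TGF-beta pathway 3 of 15 were higher and 4 lower (median -0.40), beside 8.10% and 7.14% of all genes. Tgfb3, a ligand, read 1200 to 1994 in TFH cells and 129 and 98.8 in Treg cells (log2 3.80, SE 0.22, adjusted p = 7.83e-06), while Tgfb1 differed by 0.00. The inhibitor Smad7 was lower at -4.80.

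Interferon-response genes were lower for 11 of 22, higher for 1 and not called for 10 (median -1.15). Usp18, which removes the ubiquitin-like ISG15 and restrains interferon signalling, read 2894 and 2854 in Treg cells and 148 to 255 in TFH cells (log2 -3.85, SE 0.15, adjusted p = 1.14e-06). Mx1, an antiviral GTPase, went the other way at 587 to 781 in TFH cells and 83.9 and 101 in Treg cells (log2 2.91, SE 0.48, adjusted p = 0.00166), and the call was lost without slide 4 (adjusted p = 0.0885) and without slide 5 (0.0765). Among 11 antigen-receptor response genes 2 were higher and 2 lower (median -0.08), beside 8.10% and 7.14% of all genes. Egr2, a zinc finger factor, was higher by 1.17 (SE 0.15, adjusted p = 0.00046), and Myc was lower by a log2 difference of -2.55 (SE 0.18, adjusted p = 2.31e-05), at 2007 to 3406 in TFH cells and 13057 and 17723 in Treg cells.

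Cell cycle genes were higher in TFH cells for 8 of 23 measured and lower for none (median 1.15), but the count lay outside 1.5 times its value in 13 of 21 alternatives. It was 14 and 13 without replicate 1 of TFH GL7+ and TFH GL7-, 4 without replicate 2 of either, 5 without the slide block, 3 with only the compared groups, and 4 with only the PP arrays or with no filter on dim probes. Without Treg replicate 1, or without slide 4, 16 members were called higher, and without Treg replicate 2, or without slide 5, 1 was. Mki67, the proliferation antigen, read 2674 to 4840 in TFH cells and 1368 and 596 in Treg cells, with differences of 1.10 within slide 4 and 2.81 within slide 5 (pooled 1.95, SE 0.44, adjusted p = 0.00755). The Treg array with the higher Mki67 level, on slide 4, also had the higher B-cell, epithelial and erythroid sums. A link was not tested, and the 2 Treg arrays also differ in experiment and RNA input. Of 19 genes of glucose uptake and glycolysis, 3 were higher (Hif1a, Pfkp and Tpi1) and 1 lower (median 0.53), and without slide 4 the number higher was 6. The 3 higher and 1 lower stand beside 8.10% and 7.14% of all genes. Hif1a, the hypoxia factor, rose by 1.88 (SE 0.20, adjusted p = 0.000151). The glucose transporter Slc2a3 was lower at -2.05 (SE 0.12, adjusted p = 6.71e-06).

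**Figure D4:**
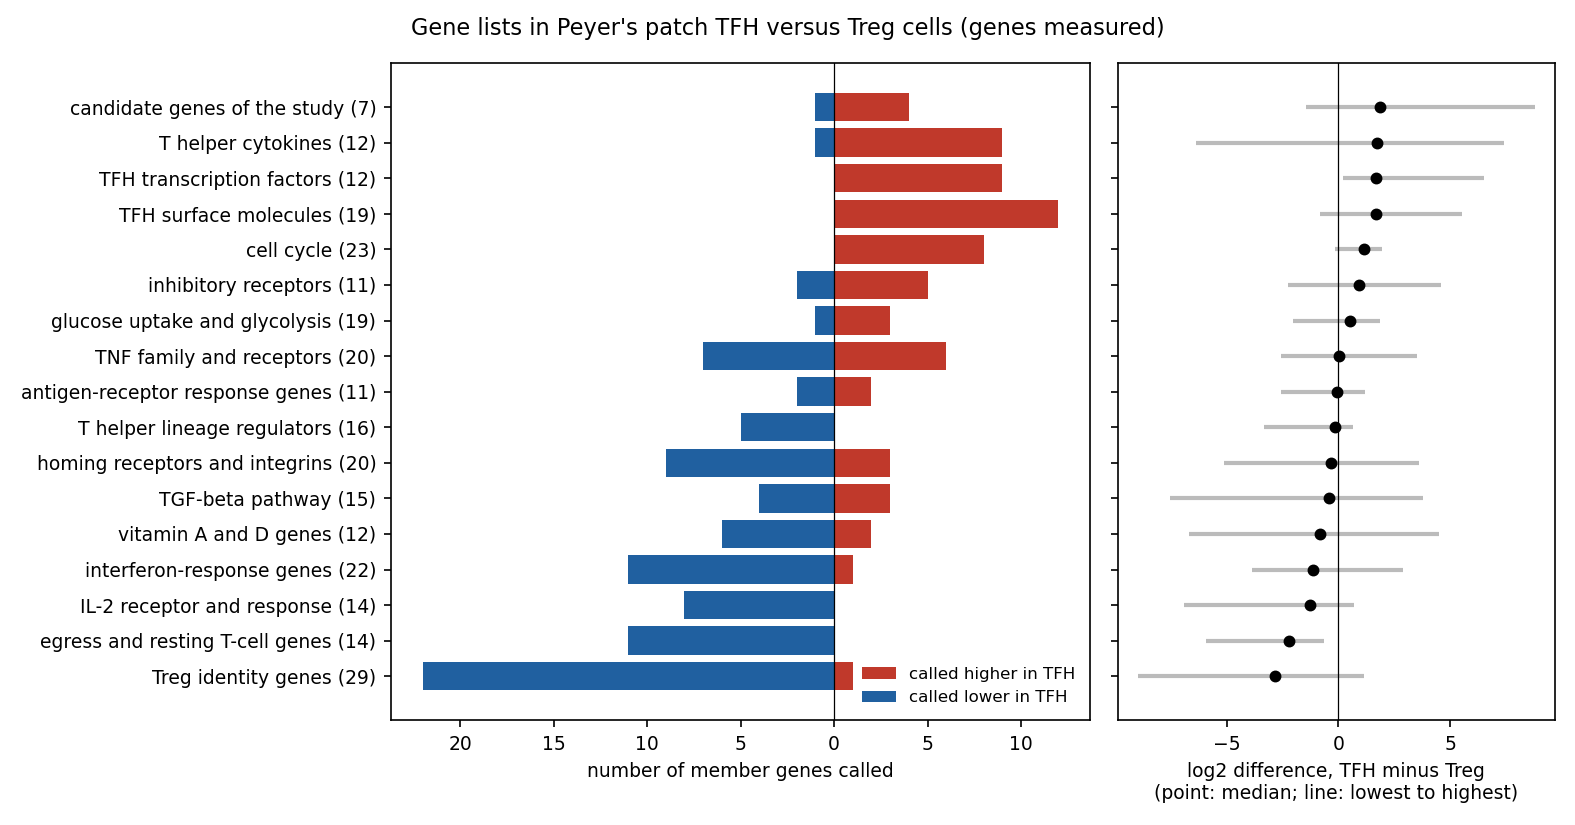
For each gene list, with the number of genes measured in brackets, bars count the members called higher or lower in TFH cells (left), and points and lines give the median, lowest and highest log2 difference (right). Treg identity genes had 22 called lower and a median of -2.85, while surface molecules of TFH cells had 12 called higher and a median of 1.67. The former count includes the sort gene Foxp3 and the latter the sort gene Pdcd1. Of all genes, 8.10% were called higher and 7.14% lower.

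Over all genes but markers of other cells, those called with the widest rise that held within each slide were Sostdc1, Il21, Fbn2, Ascl2, Pgam2, Smtn, Esm1, Cpeb1, Cebpa and Gm13889. Sostdc1, Il21, Ascl2, Smtn and Cebpa are also members of the lists. Sostdc1, a secreted antagonist of BMP and WNT signals, led at 91914 and 42446 in TFH GL7+, 80507 and 39051 in TFH GL7- and 338 and 53.0 in Treg cells, a 442-fold difference (log2 8.79, SE 0.51, adjusted p = 7.44e-06). PP TFR cells expressed it at 43577 and 31136. Smtn, an actin-binding protein of smooth muscle, read 15983 to 26218 in TFH cells and 323 and 182 in Treg cells (log2 6.37), but 1132 and 924 in PP TFR cells, with a difference from TFH cells of -4.29 (adjusted p = 7.78e-05). Pgam2, a muscle phosphoglycerate mutase, read 4976 to 8471 against 77.0 and 67.7 (log2 6.43). Esm1, a secreted proteoglycan, read 2028 to 4738 against 55.6 and 34.1 (log2 6.31, adjusted p = 1.65e-05), with 1 of 2 Treg arrays detecting it. Fbn2, an extracellular matrix fibrillin, and Cpeb1, a regulator of mRNA polyadenylation, were below background in Treg cells and at least 56.3-fold and 46.8-fold higher in TFH cells.

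Among the genes called with the widest fall were Foxp3, Lrrc32, Gm4956, Gbp2b, Socs2, Il2ra, Cyp26b1, Gata1 and Il10. Gbp2b, an interferon-induced guanylate-binding protein, was below background on all TFH arrays and at 2435 and 3111 in Treg cells, at least 97.9-fold higher (adjusted p = 5.6e-07). Its TFH values were all at the floor, so this p-value does not reflect their spread. Gata1, best known as an erythroid factor, read 3869 and 6106 in Treg cells and 37.5 to 85.7 in TFH cells (log2 -6.52, SE 0.16, adjusted p = 2.93e-07), with 2 of 4 TFH arrays detecting it. The Treg array with the higher erythroid sum (slide 4) had the lower Gata1 level, and a link was not tested. Gm4956 read 43795 and 46129 in Treg cells and 142 to 607 in TFH cells (log2 -7.35).

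Of 7 candidate genes that the study singled out, which is no independent evidence of their direction, 4 were higher (Sostdc1, Smtn, Popdc2 and Bmp7), Nrn1 was lower and Actg2 and Penk were not called (median 1.86). Penk, which encodes the opioid precursor proenkephalin, read 8069 and 9356 in TFH GL7+, 15585 and 21367 in TFH GL7- and 8987 and 7585 in Treg cells (log2 0.61, SE 0.24, adjusted p = 0.0698). TFH GL7- cells alone were called above Treg cells (1.14, adjusted p = 0.0134), while the value for TFH GL7+ cells was 0.07, and the difference between the fractions was not tested. Both Penk (33683 and 59419) and Nrn1, a GPI-anchored neuritin (5690 and 7500), were higher in PP TFR cells than in either cell type (adjusted p = 0.00134 and 7.31e-05 against TFH cells, 0.00033 and 0.000664 against Treg cells). Nrn1 read 270 to 728 in TFH cells and 1286 and 1105 in Treg cells (log2 -1.45, SE 0.27, adjusted p = 0.00339), and without either slide the list gave 2 higher and none lower.

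Whether the difference between TFH and Treg cells was that of pLN was tested with TFH GL7+ cells, since pLN TFH cells were sorted as GL7+. The 4 pLN arrays share no array with PP. In pLN, 2267 genes were called (15.6%). With both TFH fractions of PP pooled, against GL7+ TFH cells alone in pLN, 1449 genes were called in the same direction in both tissues, of 2208 called in PP and 2267 in pLN (65.6% and 63.9% of each list) and 5 in opposite directions. The test of the tissue difference called 753 probes (3.38%) and 549 genes (3.79%). PP mice were not labelled as immunised, so tissue and immunisation cannot be told apart. Called were 7 of 29 Treg identity genes, 4 of 12 vitamin A and D genes and 3 of 12 T helper cytokines. So were 3 of 14 genes of IL2 reception and response and 2 of 14 egress and resting T-cell genes, with some genes on several lists. None of 12 transcription factors of the TFH programme, 20 TNF-family, 19 glycolysis or 23 cell cycle genes was called, beside 3.79% of all genes. At that share lists of this size can hold no call, so their differences are not shown to be equal in both tissues. Each other list had 1 or 2 called. The number of calls moved widely with the fit. It was 1 probe with only the compared groups, where 4318 probes had an unadjusted p under 0.05, 72 without the slide block, 101 without slide 4 and 156 without slide 5.

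Genes whose fall was wider in PP by this test included Il10, Cyp26b1 and Nrp1. Il10 read 1358 and 582 in pLN TFH cells and 1212 and 503 in pLN Treg cells, a difference of 0.19, against -7.22 in PP (tissue difference -7.40, SE 0.76, adjusted p = 0.00426). Cyp26b1 was at 31.5 and 24.5 in pLN Treg cells, near background, and its tissue difference was -6.20 (SE 0.21, adjusted p = 2.76e-05). Nrp1, a Treg surface receptor, was at 792 and 1515 in pLN TFH and 1104 and 1333 in pLN Treg cells but at 20 to 102 in PP TFH and 806 and 2120 in PP Treg cells (tissue difference -5.31, SE 0.58, adjusted p = 0.00616). Prdm1 differed by -0.94 in pLN, where it was not called, and by -3.43 in PP (adjusted p = 0.0176 for the tissue difference). Il2ra and Socs2 were lower in TFH cells of both tissues, with differences of -4.98 and -4.55 in pLN and -7.51 and -7.16 in PP (adjusted p = 0.0167 and 0.013 for the tissue difference). The call for the tissue difference was lost in 11 of 20 alternatives for Il2ra, 8 of 20 for Socs2 and 10 of 20 for Prdm1, among them no slide block, RNA input as covariate and single left-out arrays, against 4 of 19 for Nrp1 and 1 of 19 for Il10 and Cyp26b1.

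Genes whose rise was wider in PP by this test included Smoc2, Npy, Gc and Gm13889. Smoc2, a matricellular calcium-binding protein, read 599 to 989 in PP TFH cells and at most 22.7 in pLN TFH cells (tissue difference 5.18, SE 0.26, adjusted p = 0.000153). Npy, neuropeptide Y, read 440 and 474 in TFH GL7+ and 225 and 161 in TFH GL7- cells of PP, 596 and 563 in PP TFR cells, and was at the floor in pLN TFH cells (tissue difference 4.68, SE 0.55, adjusted p = 0.00744). Gc, the vitamin D-binding protein, read 988 to 1294 in PP TFH cells and 79.5 and 65.3 in pLN TFH cells, with Treg cells of both tissues at the floor. It was called higher in pLN as well (log2 1.85, adjusted p = 2e-05), with a tissue difference of 3.78 (SE 0.17, adjusted p = 0.000128). Gm13889 rose by 5.96 in PP and by 1.15 in pLN (adjusted p = 0.00169). The call for Npy was lost in 3 of 19 alternatives and that for Smoc2, Gc and Gm13889 in 1 of 19. Values at the floor make these differences depend on where the floor is set, and their SE and adjusted p do not measure spread in the floored groups. The lowest detected intensity was 67.6 and 90.2 on the pLN TFH and Treg arrays of slide 2, so pLN values under these are not resolved there.

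Some differences were wider in pLN. Stfa3, of the stefin family of cysteine protease inhibitors, read 1652 and 4476 in pLN TFH cells but 54.5 to 118 in PP TFH cells (tissue difference -5.15, SE 0.57, adjusted p = 0.00619). Vdr rose by 7.08 in pLN and by 4.74 in PP (adjusted p = 0.0166), with 2790 and 2612 in pLN TFH cells and pLN Treg cells at the floor. Il21 rose by 9.75 and 7.53 (adjusted p = 0.0448), again with pLN Treg cells at the floor. The Il21 call was lost in 17 of 19 alternatives, including each left-out array and a floor of 50, with a tissue difference of -2.49 to -0.90. The Vdr call was lost in 9 of 19, that of Nrn1 in 7 of 20 and that of Stfa3 in 3 of 19. Nrn1 turned its sign, at 1.08 in pLN and -1.93 in PP (tissue difference -3.01, SE 0.45, adjusted p = 0.0157), with 5690 and 9574 in pLN TFH cells. For Bcl6 (-0.33, SE 0.34), Cxcr5 (-0.85, SE 0.42), Foxp3 (-0.16, SE 0.32) and Sostdc1 (-1.27, SE 0.83) the tissue difference was not called.

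**Figure D5:**
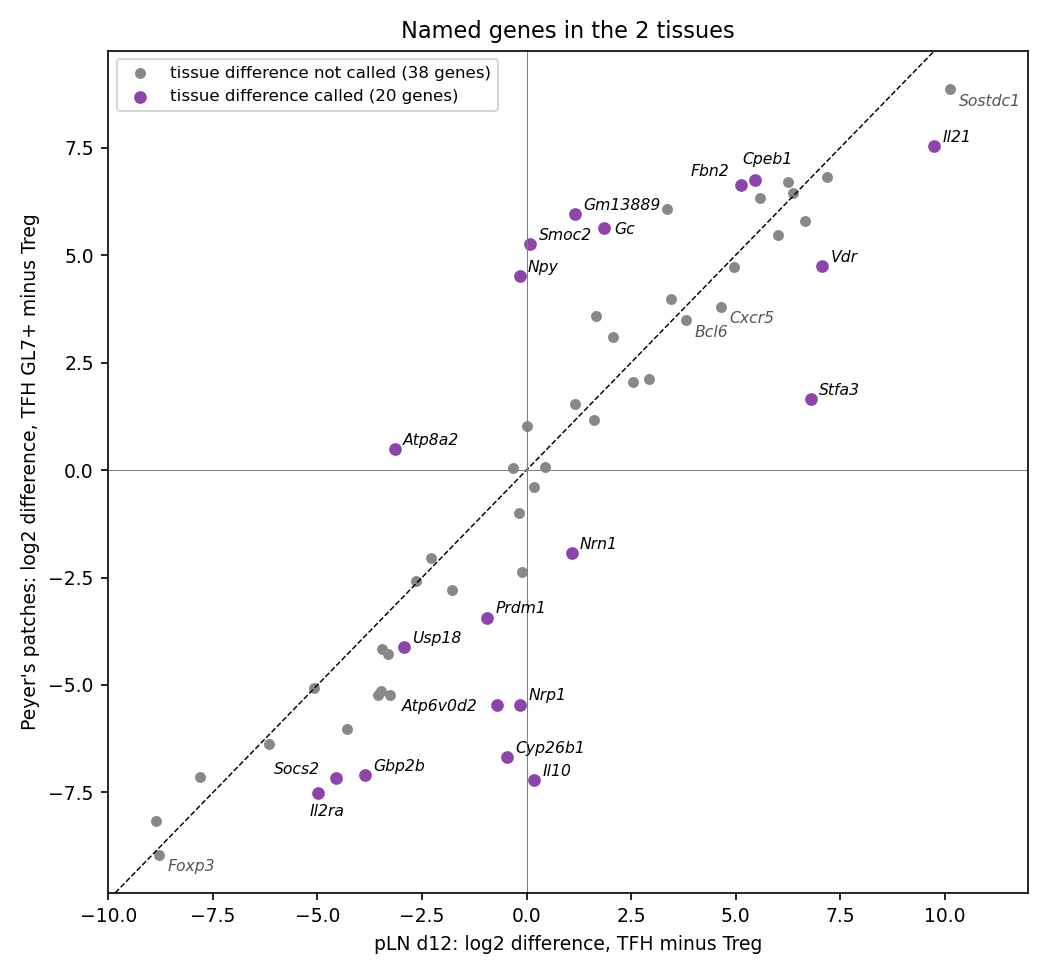
The log2 difference of TFH minus Treg cells in PP (TFH GL7+, vertical axis) against that in pLN on day 12 (horizontal axis) for the 58 named genes, with the dashed line marking equal differences. The 20 genes with a called tissue difference include Il10, Nrp1 and Cyp26b1, near 0 in pLN and below -5 in PP, and Smoc2 and Npy, near 0 in pLN and above 4 in PP.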

How the data were processed

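RNA was labelled in 1 colour and hybridised to Agilent arrays with 4 features for each of 39429 probes, annotated on mm9. The deposited files hold the intensity of each feature, background-subtracted by Agilent Feature Extraction 10.7.3.1, and other columns with its quality marks, as the authors' scanner software wrote them. From these, control, outlier and uneven features (pixel variation above 0.5) were left out, the kept features of a probe were combined as a geometric mean, and arrays were brought to a common distribution by quantile normalisation whose 75th percentile was set to 1500. Values under 20 were set to 20 before the log2 step, after the study's methods. The authors' own normalised table served as an alternative and lay 0.035 to 0.0356 log2 units from these values at the median probe. A probe was detected if 3 or more features carried the mark for signal well above background, and 22264 probes detected on both arrays of any group of 2 arrays were tested. The probe with the highest mean over all arrays stood for a gene. Of all probes, 27592 were matched to RefSeq by accession and 33271 had a symbol.

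Group means were fitted with limma 3.58.1 in R 4.3.3 over all 20 arrays with slide as a block (6 residual degrees of freedom), and Benjamini-Hochberg adjusted p-values refer to all probes tested. TFH is the mean of the GL7+ and GL7- groups. The steps were tested on simulated data. Arrays of a slide deviated together (correlations of 0.661 to 0.866 in PP and 0.521 to 0.721 in pLN), and the slide was read from the scanner barcode in the deposited files. Folds are taken from log2 means. Where a cell type was below background on all its arrays, its level was raised to the lowest detected intensity of each array, which gives "at least N-fold".

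The arrays compared and the gene lists were chosen with earlier results of these data known. Named are genes set per list, the called gene with the widest difference in each direction of each list, the 10 widest called differences in each direction that reached 1 within both slides, and the 5 widest tissue differences in each direction, 58 genes in all after some were left out that are not reported here. Members named beyond these, such as the receptor chains of IL2, complete the account of a list. Alternatives covered the block, the arrays in the fit, background, normalisation, floor, filters, RNA input, left-out arrays and slides, and an unpaired t-test.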

Additional observations from a re-analysis of the deposited data

Results flagged for a closer look

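In 4 of the 58 named genes the highest or lowest of the 4 TFH arrays stood apart from the others by Dixon's ratio, which chance gives in about 1 of 20 groups. The ratio was 1 for Ccr2, Havcr2 and Atp6v0d2, where the other 3 arrays were at the floor, and 0.891 for Gc, where TFH GL7- replicate 2 read 1294 against 988 to 1017.

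The difference of TFH GL7+ minus Treg cells differed between PP and pLN for 20 named genes by the limma contrast. It was lower in PP for Il10 (log2 difference between tissues -7.40), Cyp26b1 (-6.20), Nrp1 (-5.31), Stfa3 (-5.15) and Atp6v0d2 (-4.77). Smaller differences of the same sign were those of Gbp2b (-3.25), Nrn1 (-3.01), Socs2 (-2.61), Il2ra (-2.53), Prdm1 (-2.49), Vdr (-2.33), Il21 (-2.22) and Usp18 (-1.18). For Stfa3, Vdr and Il21, TFH GL7+ cells were above Treg cells in both tissues, with the smaller rise in PP. The difference of TFH GL7+ minus Treg cells was higher in PP for Smoc2 (5.18), Gm13889 (4.81), Npy (4.68), Gc (3.78), Atp8a2 (3.64), Fbn2 (1.52) and Cpeb1 (1.28). Atp8a2, a phospholipid flippase, was lower in pLN TFH than in pLN Treg cells (20 and 35.6 against 227 and 250) and was not called in PP. Tissue and immunisation cannot be told apart, and 19 of the 20 lost the call in a fit restricted to the compared groups.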

How the results depend on the processing

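The number of probes called between TFH and Treg cells was 2122 to 3206 under the alternatives that used a threshold on adjusted p, against 3123. Without the replicate block it was 2360. An unpaired t-test, set without the 2-fold limit, called 2549 at an adjusted p and 5902 at an unadjusted p under 0.05. For array values, the study used such a t-test between GL7+ and GL7- TFH cells and ANOVA for its other group comparisons. Against Treg cells, TFH GL7+ and TFH GL7- cells gave 2156 and 1824 calls without slide 5, and 16 and 6 by the methods' t-test after adjustment. The tissue difference (753 calls) gave 72 calls with no replicate block, 1 with only the compared groups, 268 with no filter on dim probes, 336 with only probes detected on all compared arrays, 282 with RNA input as covariate, 101 without slide 4 and 156 without slide 5. Leaving out 1 array at a time gave 134 to 693, and the count fell below 753 by more than 1.5 times without pLN Treg replicate 1 (251) or 2 (148), PP TFH GL7+ replicate 1 (262) or 2 (134), or PP Treg replicate 1 (161) or 2 (316). The share of these calls that was higher in PP moved from 35.6% to 22.2% with no replicate block, 21.2% without slide 5, 51.3% without pLN TFH replicate 2, 46.6% without pLN Treg replicate 2 and 46% without PP Treg replicate 1. Ikzf2, which was not called, changed sign without PP TFH GL7+ replicate 1 (-0.10), without PP Treg replicate 1 (-0.16) and without slide 4 (-0.28), and so did Atp8a2 without PP Treg replicate 2 (-0.03). Over left-out arrays, Ikzf2 ranged from -0.16 to 0.30 and Atp8a2 from -0.03 to 0.86. Of 54 named genes called in PP, 47 kept the call under every alternative run, and Icos, Ctla4, Nrn1, Mki67, Mx1, Stfa3 and Itgb8 lost it under at least 1. The causes were not tested. Levels under 41.1 intensity units are not resolved on every PP array, nor those under 90.2 on every pLN array compared.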
